A study of Gallus gallus with 6 samples.

Results

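Eph receptors are receptor tyrosine kinases that bind ephrins on the surface of neighboring cells. Binding signals into both cells, forward through the receptor and in reverse through the ephrin, and often makes the cells withdraw from each other, which keeps cell populations apart and steers axons and migrating muscle precursors. Ephrin-A ligands are held in the membrane by a lipid anchor and mainly bind EphA receptors, whereas ephrin-B ligands span the membrane and mainly bind EphB receptors. EPHA4 also binds ephrin-B ligands. In the limb bud many of these genes are expressed in domains that follow position along the proximal–distal or dorsal–ventral axis.

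The genes described are the 10 Eph receptors and ephrins EPHA3, EPHA4, EPHA5, EPHA7, EPHB1, EPHB2, EPHB3, EFNA2, EFNA5 and EFNB1, taken as every probe set whose annotated symbol is exactly one of these names. They are 10 of 13009 genes measured and have 23 of 38439 probe sets, from 1 for EPHA4, EPHA7 and EPHB3 to 5 for EFNA5. Other members of the family are given more briefly.

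Transcript levels came from chick forelimb bud mesoderm around a heparin acrylic bead. The bead was soaked in recombinant human FGF2 in the FGF2 group and in phosphate-buffered saline in the PBS group. It was placed in the posterior bud at Hamburger–Hamilton stage 23, about 500 μm from the tip, and the surrounding tissue was collected 24 h later at stage 25. Each group had 3 Affymetrix Chicken Genome arrays, and the RNA on each array was pooled from several embryos. No source used here names the strain. Values are on a log2 scale, so a difference of 1 is a doubling, and each log2 fold change is the FGF2 mean minus the PBS mean. The comparison asks which transcripts FGF2 alters in the tissue around the bead. The level of one probe set says nothing about that of another, because probes differ in brightness, so levels are compared only between groups.

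All 8 measured markers of limb bud mesenchyme, among them PRRX1 and TBX5 (a forelimb transcription factor), were above background. Background is taken here as 3.57, the 95th percentile of 746 probe sets that carry the names of other, mostly viral, records. Median values of the arrays were 4.75 to 4.81, and correlations across probe sets were 0.9962 to 0.9988. The tissue is a mixture, and fewer cells of a type cannot be told apart from less RNA per cell. Nerve markers were measured for 9 of 10 genes, 6 of them higher in FGF2, with SNAP25 and GAP43 at background. Their summed levels were 4780 to 6132 in FGF2 and 3057 to 3446 in PBS arrays. Among them STMN2 had a log2 fold change of 2.44, whereas the median nerve marker had 0.11. Macrophage markers, 8 of 8 measured and all higher in FGF2, had summed levels of 3195 to 3852 in FGF2 and 1958 to 2144 in PBS arrays, with MARCO at background. Endothelial markers, 8 of 8 measured and 2 higher, had 12445 to 12919 in FGF2 and 11824 to 14416 in PBS arrays, with ESAM at background. The part of other cell types in the values below was not tested.

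Of the 10 genes, 9 had a clear signal at a level of 9.34 or more on every array, and EPHA5 lay lower, between 6.11 and 7.45. Differences of the Eph and ephrin genes between FGF2 and PBS tissue were small, as were those of most genes. The median absolute log2 fold change was 0.09 over the 10 genes, beside 0.07 over all 13009. Among probe sets above background it was 0.12 for these genes, beside 0.10 over all tested. No probe set of the 10 genes passed an adjusted p of 0.05 in limma, where 0.0104% of all probe sets did. At an unadjusted p under 0.05 there was 1 of 23 probe sets, lower in FGF2, against a background of 8.93% in either direction and 3.33% lower. This same probe set was the only 1 of 23 with no overlap between FGF2 and PBS arrays, where 12.4% of all probe sets did not overlap and 5.84% had all FGF2 values below all PBS values. No probe set differed by 1.5-fold or more, as 1.72% of all did. These shares of calls are near or below the background. Log2 fold changes of the 10 genes, each by its brightest probe set, ran from -0.28 to 0.11. The median over the 23 probe sets was -0.04, beside -0.02 over all tested, with 16 lower (69.6%) beside 65.1% lower over all tested. Among probe sets above background in either group the picture was less alike, with 12 of 18 lower (66.7%, median -0.07) beside 44.2% lower over all tested (median 0.02). EFNA5 held 4 of these 12 and EFNB1 3, and probe sets of 1 gene are not independent. By gene the share lower was 70.0% beside 54.4% over all 13009. That wider set includes genes at background, whereas all 10 genes lay above it by their brightest probe set. These shares are descriptions, with no test.

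**Figure D1:**
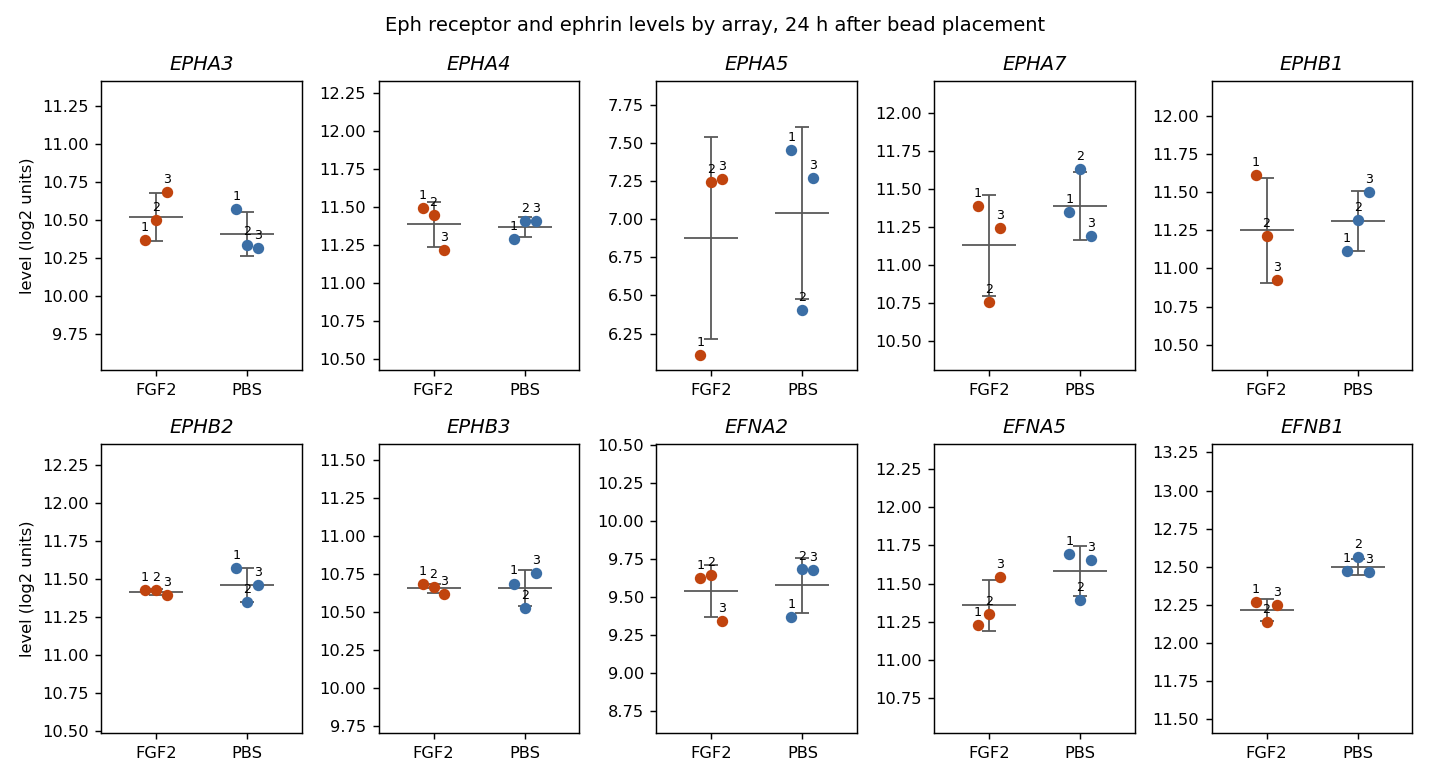
Log2 level of the brightest probe set of each Eph receptor and ephrin on the 3 FGF2 and the 3 PBS arrays, with points numbered by replicate and the mean ± SD of each group. Every panel spans the same number of log2 units, and EFNB1 is the gene whose FGF2 values, 12.14 to 12.26, all lie below its PBS values, 12.46 to 12.56.

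The 1 of 23 probe sets without overlap belonged to the ligand EFNB1 (Entrez Gene 395896), a count near the background share given above. Ephrin-B1 spans the membrane and signals in reverse through its cytoplasmic tail, and loss of its gene disturbs the skeleton in mouse and human. EFNB1 had levels of 12.26, 12.14 and 12.25 on the FGF2 arrays, against 12.47, 12.56 and 12.46 on the PBS arrays. All 3 FGF2 values lay below all 3 PBS values, and neither group spread over more than 0.13 log2 units. The means were 12.22 ± 0.07 in FGF2 and 12.50 ± 0.054 in PBS tissue (SD, n = 3), a log2 fold change of -0.28 ± 0.048 (SE; limma, adjusted p = 0.286), or 1.22-fold lower. The 95% interval, which is not adjusted for the number of genes, ran from -0.41 to -0.16.

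The other bright probe sets of EFNB1 gave nearly the same size. One had 11.25, 10.90 and 11.12 in FGF2 and 11.18, 11.51 and 11.39 in PBS tissue (log2 fold change -0.27, interval -0.57 to 0.04). The other had 10.35, 10.34 and 10.47 in FGF2 and 10.42, 10.78 and 10.78 in PBS tissue (log2 fold change -0.28, interval -0.56 to 0.01). In both the groups overlapped through the value of PBS replicate 1, the lowest of the PBS group. The fourth probe set, at background in both groups, gave -0.02. The probe sets report the same RNA pools and are not independent of each other. Leaving out single arrays gave EFNB1 a log2 fold change of -0.31 to -0.24 and an adjusted p (limma) of 0.261 to 0.571.

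By its brightest probe set EFNB1 was lowest on FGF2 replicate 2 and highest on PBS replicate 2, as were the markers of skeletal muscle precursors. Of 8 such markers 6 were measured, 1 higher and 5 lower in FGF2, and none was at background. Relative to the PBS mean, the median muscle marker stood at -0.21, -0.50 and -0.15 on FGF2 replicates 1, 2 and 3, against -0.08, 0.12 and 0.01 on PBS replicates 1, 2 and 3. Their summed level was 5154 to 8007 in FGF2 and 8219 to 9448 in PBS arrays. Proximal limb genes had the same lowest and highest arrays, at -0.13, -0.53 and -0.46 in FGF2 and -0.07, 0.04 and -0.04 in PBS tissue, with none of 6 measured at background and a summed level of 12041 to 14765 in FGF2 and 14931 to 15734 in PBS arrays. Markers of Schwann cells and neural crest, 4 of 7 measured with 1 at background, also had these lowest and highest arrays. Cartilage and endothelial markers were also lowest on FGF2 replicate 2 but highest on PBS replicate 1. The matching lists were picked out by this order of the arrays, and their part in the EFNB1 values was not tested.

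The ligand EFNA5 (Entrez Gene 396100), a lipid-anchored ephrin that in the chick limb restrains migrating muscle precursors carrying EPHA4, had levels of 11.23, 11.30 and 11.54 in FGF2 and 11.69, 11.39 and 11.65 in PBS tissue. The groups overlapped because FGF2 replicate 3 lay above PBS replicate 2. The means were 11.36 ± 0.166 in FGF2 and 11.58 ± 0.164 in PBS tissue (SD, n = 3), a log2 fold change of -0.22 ± 0.118 (SE; limma, adjusted p = 0.644, interval -0.52 to 0.08). The other 3 bright probe sets gave -0.23, -0.09 and -0.13, the last from one that can match several transcripts, and the fifth, at background, -0.01. The 4 bright probe sets were thus lower in FGF2, by amounts within the spread of the arrays. The one that can match several transcripts turned to 0.02 without PBS replicate 1. Without PBS replicate 2, the lowest PBS array in all 4 bright probe sets, the value of EFNA5 was -0.32 (limma, adjusted p = 0.46), and without FGF2 replicate 3 it was also -0.32 (adjusted p = 0.447).

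Cartilage markers varied between the arrays in a similar order to EFNA5. Relative to the PBS mean, the median cartilage gene stood at -0.49, -0.57 and -0.0017 on FGF2 replicates 1, 2 and 3, against 0.40, -0.41 and 0.05 on PBS replicates 1, 2 and 3. Of these 8 measured cartilage genes 1 was higher and 7 lower in FGF2, none was at background, and the summed level was 27954 to 39739 in FGF2 and 29440 to 51392 in PBS arrays. As with EFNA5, FGF2 replicate 3 was the highest of its group, and PBS replicate 2 the lowest of its own. The part of cartilage in the EFNA5 values was not tested.

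EFNA2 (Entrez Gene 395831), the ephrin that in chick limb buds takes part in position-specific cell affinity and cartilage shape, had levels of 9.63, 9.64 and 9.34 in FGF2 and 9.37, 9.69 and 9.68 in PBS tissue. One array of each group, FGF2 replicate 3 and PBS replicate 1, lay below the other two of its group, so the groups covered the same range. The log2 fold change was -0.04 ± 0.125 (SE; limma, adjusted p = 0.836, interval -0.36 to 0.28). The second probe set was at background in both groups. The log2 fold changes of the 3 ligands were all negative (median -0.22), and those of the 7 receptors were positive for 3 and negative for 4 (median -0.05). The difference between ligands and receptors was not tested.

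Among the EphA receptors, EPHA4 (Entrez Gene 395559) is the one best known in the limb, where it is found in distal mesenchyme and on the motor axons that grow into the dorsal limb. Its levels were 11.49, 11.44 and 11.22 in FGF2 and 11.29, 11.41 and 11.41 in PBS tissue. The highest and the lowest of the 6 values were both FGF2 arrays. The log2 fold change was 0.02 ± 0.084 (SE; limma, adjusted p = 0.907) with an interval from -0.20 to 0.23.

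EPHA7 (Entrez Gene 395967) is a receptor of the distal limb whose expression in mouse depends on HOXA13 and HOXD13. It had levels of 11.39, 10.75 and 11.24 in FGF2 and 11.35, 11.63 and 11.19 in PBS tissue. FGF2 replicate 2 was the lowest and PBS replicate 2 the highest of the 6, and the other 4 values lay together between 11.19 and 11.39. The log2 fold change was -0.26 ± 0.201 (SE; limma, adjusted p = 0.644, interval -0.77 to 0.25). It was -0.07 without FGF2 replicate 2 and -0.14 without PBS replicate 2, so leaving out FGF2 replicate 2 took away most of its size.

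On the same arrays HOXA13 was, by the means, at least 10.1-fold higher in FGF2 (limma, adjusted p = 0.145). This is a bound because all its PBS values lay under background and were set to that level. It takes no account of the spread of the arrays. HOXD13 had a log2 fold change of 0.79 (adjusted p = 0.42). EPHA7 shared its lowest array, FGF2 replicate 2, and its highest, PBS replicate 2, with several marker lists given beside EFNB1. These were the muscle precursor, proximal, and Schwann cell and neural crest markers, and distal genes had the reverse. The part of these lists in the EPHA7 values was not tested.

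EPHA3 (Entrez Gene 396402), a receptor for ephrin-A5, had levels of 10.37, 10.50 and 10.68 in FGF2 and 10.57, 10.34 and 10.31 in PBS tissue. The groups overlapped, with a log2 fold change of 0.11 ± 0.108 (SE; limma, adjusted p = 0.649, interval -0.16 to 0.38). Its second probe set, of a class that can match several transcripts, had 7.39, 8.14 and 7.99 in FGF2 and 7.66, 7.17 and 7.53 in PBS tissue. There FGF2 replicates 2 and 3 lay above all PBS arrays and FGF2 replicate 1 did not, and the log2 fold change was 0.39 (adjusted p = 0.644, interval -0.21 to 0.98). It was the highest value of any probe set of the 10 genes.

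EPHA5 (Entrez Gene 395997), a receptor known mainly from neurons, was the most variable of the 10. Its levels were 6.11, 7.25 and 7.27 in FGF2 and 7.45, 6.40 and 7.27 in PBS tissue. One array of each group, FGF2 replicate 1 and PBS replicate 2, lay far below the other two, so that values spread over 1.16 log2 units in FGF2 and 1.05 in PBS tissue. The log2 fold change was -0.17 ± 0.435 (SE; limma, adjusted p = 0.807), with an interval from -1.26 to 0.93. It was 0.22 without FGF2 replicate 1 and -0.49 without PBS replicate 2, so these arrays do not settle a direction for EPHA5. Its second probe set was at background.

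The EphB receptors, the main partners of ephrin-B1, had log2 fold changes of -0.06 to 0.00. EPHB2 (Entrez Gene 396513) had levels of 11.43, 11.43 and 11.40 in FGF2 and 11.58, 11.35 and 11.46 in PBS tissue, a log2 fold change of -0.05 ± 0.060 (SE; limma, adjusted p = 0.67, interval -0.20 to 0.11). All FGF2 values lay inside the range of the PBS values. Its other probe sets gave 0.05, from one that can match several transcripts, and 0.04. EPHB3 (Entrez Gene 396179) had levels of 10.68, 10.66 and 10.62 in FGF2 and 10.69, 10.52 and 10.75 in PBS tissue. Here too the FGF2 values lay inside the PBS range, and the means were 10.65 in both groups (interval of the difference -0.16 to 0.16, adjusted p = 0.997).

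EPHB1 (Entrez Gene 396177), which guides motor axons into the ventral limb in mouse, had levels of 11.61, 11.21 and 10.93 in FGF2 and 11.12, 11.32 and 11.50 in PBS tissue. The FGF2 arrays held both the highest and the lowest value and spread over 0.69 log2 units. The log2 fold change was -0.06 ± 0.199 (SE; limma, adjusted p = 0.842, interval -0.57 to 0.44). It was 0.10 without FGF2 replicate 3. The second probe set of EPHB1, at background, gave 0.16.

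**Figure D2:**
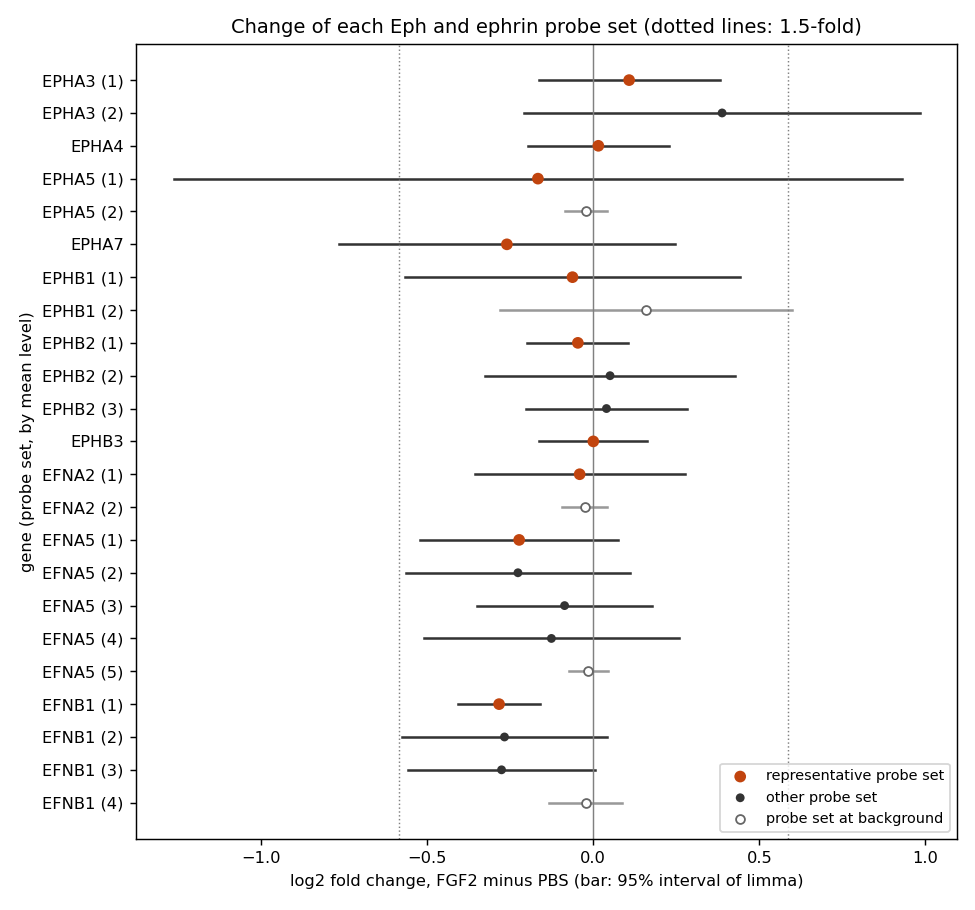
Log2 fold change, FGF2 minus PBS, of all 23 probe sets of the 10 genes, with the 95% interval of limma. The intervals of 19 probe sets lie within 1.5-fold in both directions. These are 15 of 18 above background and 4 of 5 at background, where no difference could be detected. The widest interval is that of EPHA5, from -1.26 to 0.93.

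Because a p above the threshold does not show equality, the intervals say more than the missing calls. For 8 of the 10 genes the interval lay within 1.5-fold in both directions, and the exceptions were EPHA5 and EPHA7. Over all 13009 genes, which include genes at background, the interval lay within 1.5-fold for 85.8%. Among probe sets above background it did so for 15 of 18 of the 10 genes (83.3%), beside 79.7% over all tested. The arrays of one group did not deviate together across the family. FGF2 replicate 1 was the highest of its group for 6 genes and the lowest for EPHA3, EPHA5 and EFNA5. FGF2 replicate 3 was the highest for these same 3 genes and the lowest for EPHA4, EPHB1, EPHB2, EPHB3 and EFNA2. PBS replicate 1 was the highest for EPHA3, EPHA5, EFNA5 and EPHB2, and the lowest for EPHA4, EPHB1 and EFNA2. FGF2 replicate 3 and PBS replicate 1 were thus the highest of their groups for EPHA3, EPHA5 and EFNA5 and the lowest for EPHA4, EPHB1 and EFNA2, a description of 6 arrays with no test.

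Of 13 further Eph receptors and ephrins, 6 had a probe set with their symbol, and 5 were lower and 1 higher in FGF2. EFNB2, the ephrin of arterial endothelium, had levels of 7.58, 7.67 and 7.51 in FGF2 and 8.10, 7.62 and 7.81 in PBS tissue, a log2 fold change of -0.26 (limma, adjusted p = 0.638, interval -0.59 to 0.06). EPHB6, a receptor whose kinase domain is inactive, had 9.82, 9.79 and 9.58 in FGF2 and 9.91, 9.91 and 9.83 in PBS tissue, with every FGF2 value below every PBS value by a small margin (log2 fold change -0.15, adjusted p = 0.61). EPHA2 gave 0.14 and EPHA1, from a probe set that can match several transcripts, -0.12, at levels of 4.88 to 6.13. EPHA6 and EPHA10 lay at background in both groups. The 3 B-type genes lower by 0.15 or more, EFNB1, EFNB2 and EPHB6, stand beside EPHB1, EPHB2 and EPHB3, which lay between -0.06 and 0.00. This grouping was made after the values were seen and carries no test.

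Genes that act inside the cell on Eph and ephrin signals were divided, with 19 of 38 measured effectors higher and 19 lower, a median log2 fold change of -0.0019 and none past an adjusted p of 0.05. At an unadjusted p under 0.05 there were 7 of 38 higher, against 7.77% of all genes, and 3 of 38 lower, against 4.59%. The tyrosine phosphatase PTPRO, which in chick removes phosphate from Eph receptors, had the highest value. Its levels were 3.17, 5.46 and 4.21 in FGF2 and 2.56, 2.57 and 2.30 in PBS tissue (limma, adjusted p = 0.495). All PBS values and the lowest FGF2 value lay under the background level of 3.57. Against that level PTPRO was, by the means, at least 1.64-fold higher in FGF2. This bound takes no account of the spread of the arrays, and the FGF2 values had an SD of 1.15. RGS3, which carries reverse signals of ephrin-B ligands, had 8.53, 8.43 and 8.41 in FGF2 and 7.84, 8.36 and 7.92 in PBS tissue (log2 fold change 0.42, adjusted p = 0.521). KALRN, which acts downstream of EphB receptors in neurons, gave 0.37 (adjusted p = 0.528). In RGS3 and KALRN the FGF2 values lay above all PBS values, as in 9 of 38 effectors and 1188 of 13009 genes. The named effectors were picked by their fold changes, which favors such gaps. Both probe sets are of the class that can match several transcripts.

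The lowest effector was PIK3R1, a regulatory subunit of phosphoinositide 3-kinase, with 10.03, 10.30 and 10.35 in FGF2 and 10.83, 10.30 and 10.69 in PBS tissue (log2 fold change -0.38; limma, adjusted p = 0.584). The chimaerins CHN2 and CHN1 inactivate Rac, and CHN1 passes on the signal of EPHA4 in motor axons. CHN1 had 10.83, 10.76 and 10.88 in FGF2 and 10.98, 11.29 and 10.98 in PBS tissue, which did not overlap (log2 fold change -0.26 ± 0.096 SE; adjusted p = 0.542), from a probe set of a class that can match several transcripts. CHN2 gave -0.35 (adjusted p = 0.54), likewise without overlap. All FGF2 values lay below all PBS values in 3 of 38 effectors and 890 of 13009 genes.

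The same arrays held larger differences in genes of limb position. All 13 distal limb mesenchyme genes were higher in FGF2, from 0.34 for HAND2 to 2.50 for LHX2, with HOXA13 above these by its bound (median 1.21). Of them 12 had an unadjusted p under 0.05, where 7.77% of all genes were higher at this threshold. Of 6 measured proximal genes 5 were lower and 1 higher, with a median of -0.43. None of the 13 or the 6 passed an adjusted p of 0.05. All 13 distal and all 6 proximal values lay outside the range of the Eph and ephrin genes, -0.28 to 0.11, each by its brightest probe set. The second probe set of EPHA3, at 0.39, lay above HAND2 and above the proximal gene HOXA9 (0.18). The study itself reported many of these distal genes as raised on these arrays at an unadjusted p under 0.05. It likewise reported the proximal genes EMX2 and MEIS2 as lowered. The counts are therefore not independent of the choice of genes, and the contrast between the lists is a description and was not tested.

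**Figure D3:**
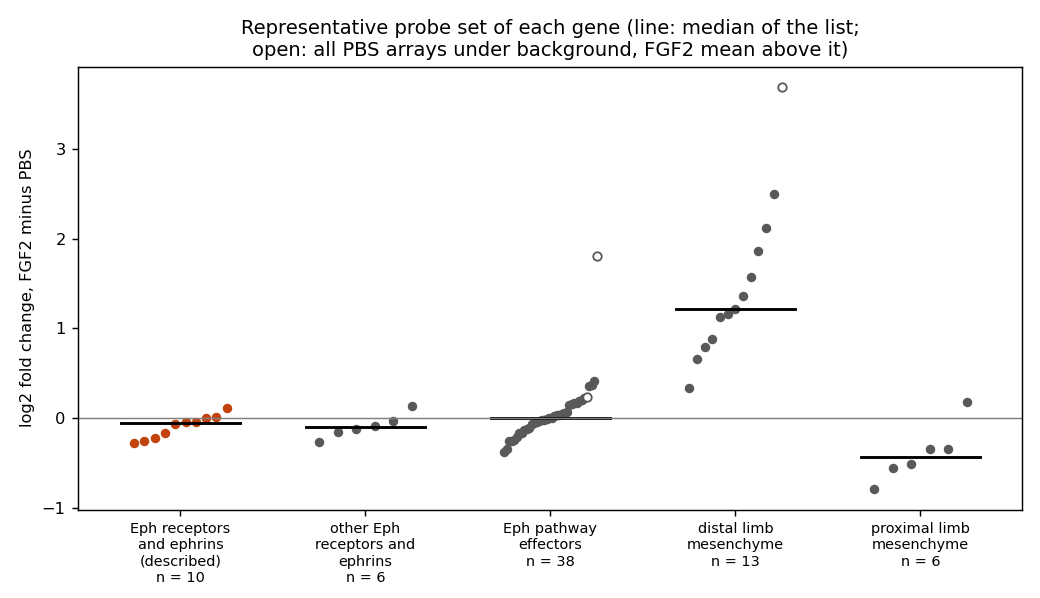
Log2 fold change, FGF2 minus PBS, of the representative probe set of each gene in 5 lists, with the median of each list as a line. The 10 Eph receptors and ephrins lie between -0.28 and 0.11 and all 13 distal genes at 0.34 or higher. The second probe set of EPHA3, at 0.39, is not drawn. Open points, HOXA13, PTPRO and ANKS1A, are drawn at their measured differences but were under background in all PBS arrays, so their size is uncertain.

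**Figure D4:**
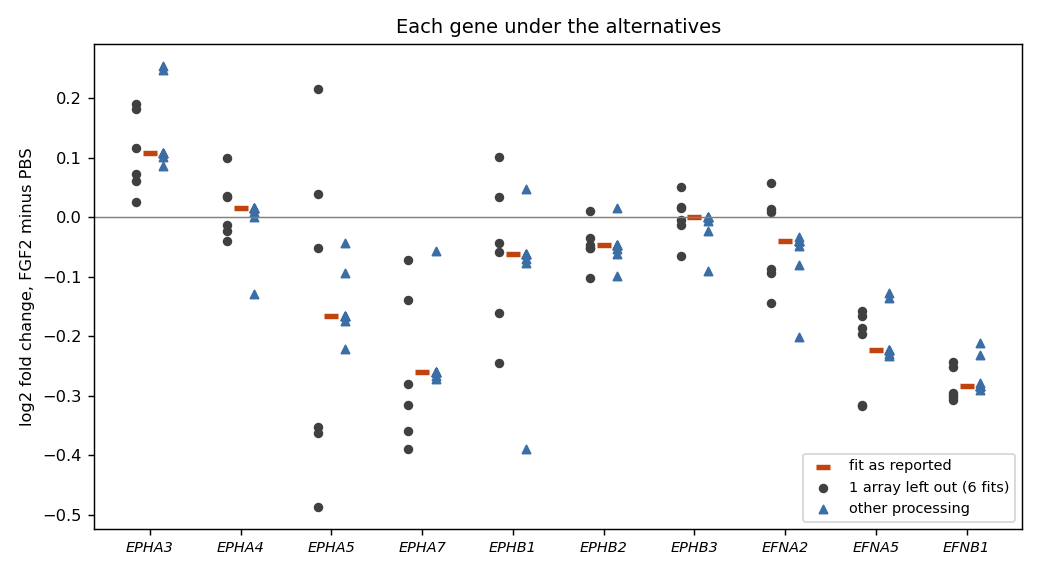
Log2 fold change, FGF2 minus PBS, of each gene as reported (orange), with 1 array left out in turn (dots) and under other processing (triangles). EFNB1, EFNA5 and EPHA7 stay below 0 and EPHA3 above 0 in all 14 alternatives, whereas the other 6 genes cross 0. Points for the replicate block, the variance model and the probe set filters repeat the reported value, as these alternatives cannot change it.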

How the data were processed

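RNA of 6 pools of chick forelimb bud tissue was measured on single-color Affymetrix Chicken Genome arrays, grouped by their titles as 3 FGF2 and 3 PBS. The values deposited by the authors are on a log2 scale (inferred from their range, 0.128 to 15.95), after Robust Multi-array Averaging, which corrects background, equalizes quantiles and summarizes probe sets. Quantile equalization removes shifts common to all genes. Of 38535 probe sets 96 controls were left out, and GEO's platform annotation gave 27168 1 symbol, 177 several and 11094 none. The brightest probe set, by its mean over the 6 arrays, represents a gene. Groups were compared with lmFit and eBayes (limma 3.58.1, R 4.3.3), with the arrays treated as unpaired. Tests were two-sided and Benjamini-Hochberg adjustment covered 38439 probe sets, with a threshold of 0.05 and moderated 95% intervals. The methods' own threshold, an unadjusted p under 0.05, is given beside it. The fit was tested on simulated data with planted changes larger than those of the Eph and ephrin genes. That test does not show whether changes of their size could be found. A permutation test of 3 against 3 arrays cannot give p under 0.1. The p-values reflect only how these RNA pools vary. Precision was limited by the spread between arrays, also far above background, as for EPHA7 (SE 0.201). At background no difference could be detected, and arrays have no read depth.

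The members and lists were chosen with earlier results of these data known. Named genes are the 10 members, the other measured Eph receptors and ephrins, and the 3 highest and 3 lowest effectors. Of the listed genes 7 other Eph receptors and ephrins and 4 effectors had no probe set with a single matching symbol. Schwann cell and ectoderm markers are under the other observations. No genome positions or sequences are given for the probe sets. Alternatives left out single arrays, added a replicate block, or changed the scaling, filter, summary, variance model or array weights.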

Additional observations from a re-analysis of the deposited data

How the results depend on the processing

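The count of Eph and ephrin probe sets past an adjusted p of 0.05 stayed at 0 in every alternative except array weights, where it was 1 (EFNB1, log2 fold change -0.23, adjusted p = 0.0265). The estimation of those weights stopped before it converged and gave FGF2 replicate 3 a weight of 8.45 against 0.275 to 2.25 for the others. The count at an unadjusted p under 0.05, 1 as reported, was 2 with a replicate block, median centring or brighter probe sets only, 3 with a variance trend and robust fitting, 8 with array weights and 1 to 4 with each array left out, where the highest was without PBS replicate 2. The number of all probe sets past an adjusted p of 0.05, 4 as reported, was 1 with a replicate block, 7 after quantile normalization again, 40 among brighter probe sets only, 39 with a variance trend, 2256 with array weights and 0 to 3 with each array left out (0 without PBS replicate 1, 2 or 3). All probe sets with an unadjusted p under 0.05 were 62.7% higher in FGF2, and 48.8% after quantile normalization again. The median over the Eph and ephrin probe sets was -0.04, -0.06 to -0.02 with each array left out and -0.10 with array weights. Among brighter probe sets only it was -0.07, where the median of all tested was 0.03 in place of -0.02. After quantile normalization again it was -0.06, where the median of all tested was -0.0018.

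Of the 10 genes, EPHA3, EPHA7, EFNA5 and EFNB1 kept their direction, by the brightest probe set or the mean of all, in 14 alternatives each. A replicate block, the variance model and the filters by brightness or transcript match cannot change a log2 fold change. For EPHA7, with 1 probe set, averaging its probe sets cannot either. Those alternatives could not have turned a direction. EPHA4, EPHB1, EPHB2, EPHB3, EFNA2 and, over a wider range, EPHA5 turned. With an array left out, EPHA4 ran from -0.039 to 0.10 and EPHA5 from -0.49 to 0.22. EPHB1 ran from -0.24 to 0.10 and EPHB2 from -0.10 to 0.0097. EPHB3 ran from -0.065 to 0.050 and EFNA2 from -0.14 to 0.058. Array weights gave -0.13 for EPHA4 and -0.090 for EPHB3. EPHB3 was -0.023 after quantile normalization again and -0.0070 with median centring. Averaging all probe sets of a gene gave 0.048 for EPHB1 and 0.015 for EPHB2. The cause of these turns was not tested. The study repeated the experiment on separate days, so arrays of one day may be paired, but no label gives the day of an array. The labels thus do not say which FGF2 and PBS arrays belong together. Deviations from the group means correlated at -0.25, -0.0019 and -0.18 between same-numbered arrays. They correlated at 0.33 between FGF2 replicate 3 and PBS replicate 1. For FGF2 replicate 1 with PBS replicate 2 it was 0.21, and for FGF2 replicate 2 with PBS replicate 3 it was 0.17. The remaining pairs lay between -0.19 and 0.03. Pairing under other numbers was not tested. The block by replicate number changed no adjusted call of the 10 genes (EFNB1, limma, adjusted p = 0.429). Of the 23 probe sets 5 were at background, where no difference could be detected.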

Other observations

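Neural crest cells and ectoderm also carry Eph receptors and ephrins. Of 7 markers of Schwann cells and neural crest 4 were measured, 3 lower and 1 higher in FGF2. SOX10 gave a log2 fold change of -0.78 (limma, adjusted p = 0.612) and FOXD3 -0.64 (adjusted p = 0.509), and CDH19 was at background. Their summed level was 2033 to 2668 in FGF2 and 2082 to 2635 in PBS arrays. Of 9 markers of limb ectoderm and apical ridge 7 were measured, 4 higher and 3 lower, with a median of 0.06. FGF8, the defining ligand of the apical ridge, and ESRP1 were at background. The summed level of the ectoderm markers was 5246 to 6086 in FGF2 and 5182 to 5534 in PBS arrays.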
